A study of Rattus norvegicus with 21 samples.

Results

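The genes of the rat major histocompatibility complex (MHC), called RT1, and the genes that load their products with antigen were followed in the anterior pituitary gland. A probe set was included when every platform gene symbol it carried began with RT1-, or when its symbol was B2m, Cd74, Tap1, Tap2, Tapbp, Psmb8, Psmb9, Psmb10, Ciita, Nlrc5, Cd1d1, Erap1, Calhm6, Cd80 or Cd86. This gave 58 of the 31042 probe sets that were not array controls, 37 of them RT1 probe sets, and 52 of the 58 carried a single symbol, for 33 genes. Counting every symbol, 40 gene names were covered. The test took the 47 that lay above the 40th percentile of signal on 3 or more arrays, and 11 did not pass. The samples were 21 Affymetrix rat arrays of male rats of the strains ACI, COP (Copenhagen) and BN (Brown Norway). In each strain, 4 arrays came from rats given an implant with 5 mg of diethylstilbestrol (DES), a synthetic estrogen, and 3 from rats with an empty implant (control). Implants were placed at 9 weeks of age, glands were taken at 21 weeks, and all rats received 50 mg/kg of BrdU before death. Each group is 1 inbred strain, so rats of a group share their genotype. The series text counts every array as a biological replicate, but the notes on single samples name 1 independent replicate fewer than there are arrays, so p-values measure the spread between arrays, part of which may be technical.

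MHC class I molecules pair an RT1-encoded heavy chain with beta-2 microglobulin and show peptides from inside the cell to cytotoxic T cells. Their peptides are cut by the immunoproteasome, carried into the endoplasmic reticulum by the TAP transporter, loaded with the help of tapasin and trimmed by Erap1. Class II molecules are alpha and beta chain pairs that are carried by the invariant chain Cd74 and loaded by DM, and professional antigen-presenting cells such as macrophages, dendritic cells and B cells are their main source in most tissues. Many genes of both pathways are induced by interferon. The pituitary itself is mainly made of hormone-secreting cells. ACI and COP are known to carry the same RT1 haplotype, and BN carries another.

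The stretches of 150 bases just upstream of 6 annotated gene starts are shown because their genes carry the main results. The genes are 4 class II genes that rose with DES in COP (RT1-Ba on 1370822_at only) and a pair of class I pathway genes that stand head to head. The stretches come from RefSeq on the rat build GRCr8, on which the RT1 complex lies on chromosome 20. Each is written 5′ to 3′ on the strand of its gene. RT1-Da is at chr20:4515243-4515392 (plus strand), RT1-Ba at chr20:4576907-4577056 (plus), RT1-Bb at chr20:4604119-4604268 (minus), RT1-DMa at chr20:4712336-4712485 (minus), Tap1 at chr20:4668544-4668693 (minus) and Psmb9 at chr20:4668802-4668951 (plus). Capitals mark matches, on either strand, to the CCAAT box (CCAAT), the core of the class II X box (GCAACNNATG) or the core of the interferon-stimulated response element (GAAANNGAAA).
RT1-Da: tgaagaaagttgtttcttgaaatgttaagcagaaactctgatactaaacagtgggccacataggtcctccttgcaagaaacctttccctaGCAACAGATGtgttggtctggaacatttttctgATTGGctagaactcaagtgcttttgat
RT1-Ba: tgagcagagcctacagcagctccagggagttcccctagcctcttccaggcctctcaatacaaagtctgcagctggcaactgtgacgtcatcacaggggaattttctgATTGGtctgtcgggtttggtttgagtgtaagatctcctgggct
RT1-Bb: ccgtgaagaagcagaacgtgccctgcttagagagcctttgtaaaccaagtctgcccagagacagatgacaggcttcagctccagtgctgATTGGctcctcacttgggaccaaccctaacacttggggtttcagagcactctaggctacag
RT1-DMa: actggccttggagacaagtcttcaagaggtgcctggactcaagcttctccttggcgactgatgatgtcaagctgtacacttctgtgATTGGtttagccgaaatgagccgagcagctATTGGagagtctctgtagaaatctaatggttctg
Tap1: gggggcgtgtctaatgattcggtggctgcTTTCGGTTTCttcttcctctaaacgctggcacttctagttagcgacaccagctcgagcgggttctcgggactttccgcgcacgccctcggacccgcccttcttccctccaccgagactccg
Psmb9: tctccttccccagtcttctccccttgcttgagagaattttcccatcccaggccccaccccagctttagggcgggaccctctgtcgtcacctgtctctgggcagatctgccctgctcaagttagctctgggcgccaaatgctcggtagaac

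All 4 class II stretches held a CCAAT box, in the orientation ATTGG, at 27 bases before the start in RT1-Da, 43 in RT1-Ba, 61 in RT1-Bb, and 64 and 34 in RT1-DMa. The X box core stood 60 bases before the start of RT1-Da. Tap1 held the interferon element core 121 bases before its start, and no match was found in the Psmb9 stretch, although the annotated starts of Tap1 and Psmb9 are only 408 bases apart. Among 24673 RefSeq promoters with 150 bases upstream, 23.8% held the CCAAT box, 0.199% the X box core and 2.16% the interferon element core. Of the 25 members with such a stretch, 14 held a CCAAT box, 2 the X box core (RT1-Da and RT1-Db1) and 6 the interferon element core (B2m, Calhm6, Psmb10, RT1-S3, Tap1 and Tap2). The estrogen response element palindrome (GGTCANNNTGACC) was in 0.0243% of all promoters and in 0 of the 25. These are matches of letters and not measured binding sites.

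Every array had been scaled to a trimmed mean of about 500.1 to 500.2, and the median signal ran from 118.8 to 151.45. In BN, the DES arrays 3 and 4 stood apart from arrays 1 and 2 (correlations between BN DES arrays of 0.9363 to 0.9785, against at least 0.9588 in every other group), and for the genes named below BN results are also given without these 2 arrays where that changed a call. The 3′ to 5′ signal ratio of the actin control probe sets, a sign of RNA quality, was 2.82 to 3.52 in ACI DES against 3.92 to 4.48 in ACI control, 2.93 to 3.33 in COP DES against 3.38 to 4.01 in COP control, and 2.61 to 3.52 in BN DES against 3.15 to 7.24 in BN control. Its part in the results was not tested. The median of all 21858 probe sets tested moved by -0.13 on the log2 scale with DES in ACI, by -0.09 in COP and by -0.06 in BN, and centring every array on its median added 0.22, 0.11 and 0.08 to each log2 difference in these strains.

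The first question was which of these genes changed with DES in each strain. In ACI 11 of the 47 probe sets tested rose and 11 fell, where 19.8% of all probe sets tested rose and 29.3% fell. In COP 15 rose and 10 fell, against 17.9% and 25.2% of all. In BN 3 rose and 14 fell, against 14% and 19.4% of all. The median log2 difference of the members was -0.10 for ACI rats, 0.40 for COP rats and -0.13 for BN rats. DES and control arrays did not overlap for 22 of the 47 members in ACI, 25 in COP and 14 in BN. Of all probe sets tested, 54%, 48.3% and 36.8% did not overlap in these strains, so a lack of overlap was common. With median centring the calls were 14 higher and 7 lower in ACI, against 16 and 7 for COP and 5 and 11 for BN. Over all probe sets called, centring moved the share that was higher in the same direction, to 57.4% with centring against 40.4% without it in ACI, with 51.4% against 41.6% for COP and 51.8% against 42% for BN. When BN DES arrays 3 and 4 were left out, 1 member rose and 11 fell in BN, and the share of all probe sets called in BN was 26.6%, against 33.5% with all arrays. The functional groups went different ways. Of 13 class II probe sets tested (Ciita included), 3 rose and 0 fell in ACI, 6 rose and 0 fell in COP, and 0 rose and 4 fell in BN. Of 8 for peptide supply, 1 rose and 5 fell in ACI, 1 rose and 5 fell in COP, and 0 rose and 4 fell in BN. Of 23 for class I heavy chains, B2m and Nlrc5, 6 rose and 5 fell in ACI, against 6 and 4 for COP and 2 and 5 for BN.

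**Figure D1:**
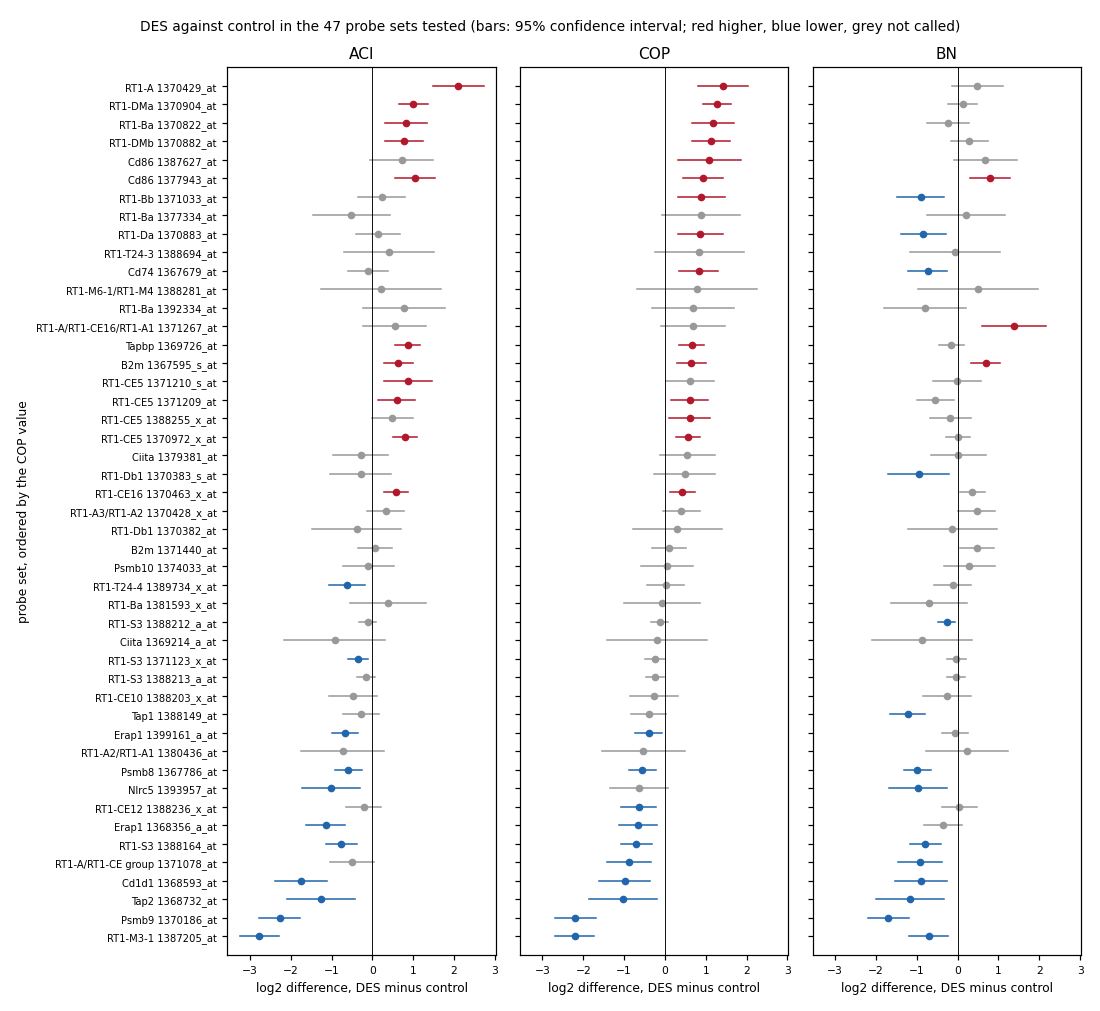
The log2 difference of DES minus control (x axis) is plotted for each of the 47 probe sets tested, ordered by the COP value, in ACI, COP and BN, with 95% confidence intervals and colors for calls at an adjusted p under 0.05. Class II genes such as RT1-Da and Cd74 are red in COP and blue in BN, while Psmb9 and RT1-M3-1 are blue in all 3 strains.

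Of the class II transcripts, those of Cd74, RT1-Da and RT1-Bb rose with DES in COP and fell in BN. The DM genes, and RT1-Ba on its probe set 1370822_at only, rose in COP and ACI and were not called in BN. Cd74, the invariant chain that escorts class II molecules, had signals of 4630.6, 4301.3, 3301.6 and 5792.3 on the COP DES arrays, against 2475.1, 2473.2 and 2494.5 on the COP control arrays. In BN it had 2711.6, 2732.0, 3350.7 and 4265.1 with DES, against 5700.9, 4847.0 and 5505.5 in controls. The groups did not overlap in either strain, and lay on opposite sides. The log2 difference was 0.83 ± 0.23 (SE, n = 4 and 3) in COP (adjusted p = 0.00615) and -0.73 ± 0.23 in BN (adjusted p = 0.0184). The ACI signals of Cd74 were 3075.7, 5347.3, 3070.1 and 1875.7 with DES against 3521.6, 3646.7 and 2929.4 in controls. They overlapped, with a difference of -0.10 ± 0.23 (95% interval -0.58 to 0.38). The Cd74 call in BN was lost without BN control array 1 (adjusted p = 0.0669) or array 3 (0.0561) and was kept without BN DES arrays 3 and 4 (-0.97, adjusted p = 0.0087).

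RT1-Da, the alpha chain of the class II D molecule, had the same directions. It had 2960.7, 2606.4, 2520.0 and 4477.7 in COP DES rats against 1587.1, 1458.4 and 2007.7 in COP controls, and 1143.9, 1432.7, 2226.4 and 2799.8 in BN DES rats against 3068.7, 2690.5 and 3997.5 in BN controls. The COP groups were apart, whereas 1 BN DES array lay above the lowest BN control. RT1-Da rose by 0.87 ± 0.26 in COP (adjusted p = 0.0108), differed by -0.84 ± 0.26 in BN (adjusted p = 0.0175) and by 0.14 ± 0.26 in ACI (adjusted p = 0.685). The COP call was lost without COP control array 2 (0.77, adjusted p = 0.0523). The BN call was lost without BN DES array 1 (-0.62, adjusted p = 0.0621) or BN control array 3 (-0.68, adjusted p = 0.0973), and without BN DES arrays 3 and 4 the difference was -1.31 (adjusted p = 0.000526).

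RT1-Bb, the beta chain of the class II B molecule, averaged 1533 ± 379 in COP DES rats and 802.0 ± 74.3 in COP controls (SD, n = 4 and 3), a log2 difference of 0.89 ± 0.28 (adjusted p = 0.0131). In BN it averaged 433.8 ± 121 with DES and 812.8 ± 133 in controls, a difference of -0.91 ± 0.28 (adjusted p = 0.015). Its ACI means were 1262 ± 622 with DES and 987.8 ± 133 in controls, which overlapped (adjusted p = 0.521). The RT1-Bb calls were lost without COP control array 3 (0.81, adjusted p = 0.0536), and without BN control array 1 (-0.86, adjusted p = 0.0541) or array 3 (-0.81, adjusted p = 0.0644). RT1-Db1, the D beta chain, differed by 0.48 ± 0.36 in COP (adjusted p = 0.296) and fell in BN (-0.95 ± 0.36, adjusted p = 0.0446). The RT1-Db1 call in BN did not survive 20 of 34 alternative settings.

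A further set of class II genes rose in both ACI and COP. RT1-DMa, a subunit of the DM molecule that exchanges peptides on class II, had 380.0, 372.5, 345.2 and 330.6 in ACI DES rats against 168.6, 189.5 and 152.0 in ACI controls. In COP RT1-DMa had 372.9, 361.7, 409.5 and 490.8 with DES against 177.2, 171.9 and 129.2 in controls. In BN it had 296.2, 264.9, 376.9 and 434.9 with DES against 289.8, 283.4 and 355.6 in controls. Only the BN groups overlapped. RT1-DMa rose by 1.01 ± 0.17 in ACI (adjusted p = 3.45e-05) and 1.28 ± 0.17 in COP (adjusted p = 2.25e-06), each with an exact permutation p of 0.0286, the smallest that 35 splits allow, and differed by 0.12 ± 0.17 in BN (adjusted p = 0.614). RT1-DMb, its partner, rose by 0.78 ± 0.22 in ACI and 1.12 ± 0.22 in COP and differed by 0.29 ± 0.22 in BN (adjusted p = 0.342). RT1-Ba, the B alpha chain, rose by 0.82 ± 0.25 in ACI and 1.18 ± 0.25 in COP on its probe set 1370822_at. On it RT1-Ba differed by -0.24 ± 0.25 in BN. The brightest RT1-Ba probe set, 1392334_at, differed by 0.77 in ACI and 0.69 in COP. On 1381593_x_at the values were 0.39 and -0.06, and on 1377334_at they were -0.51 and 0.88. None of these was called in ACI or COP (adjusted p = 0.13 to 0.925), so the RT1-Ba rise rests on 1370822_at. RT1-DOa and RT1-DOb had no probe set.

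**Figure D2:**
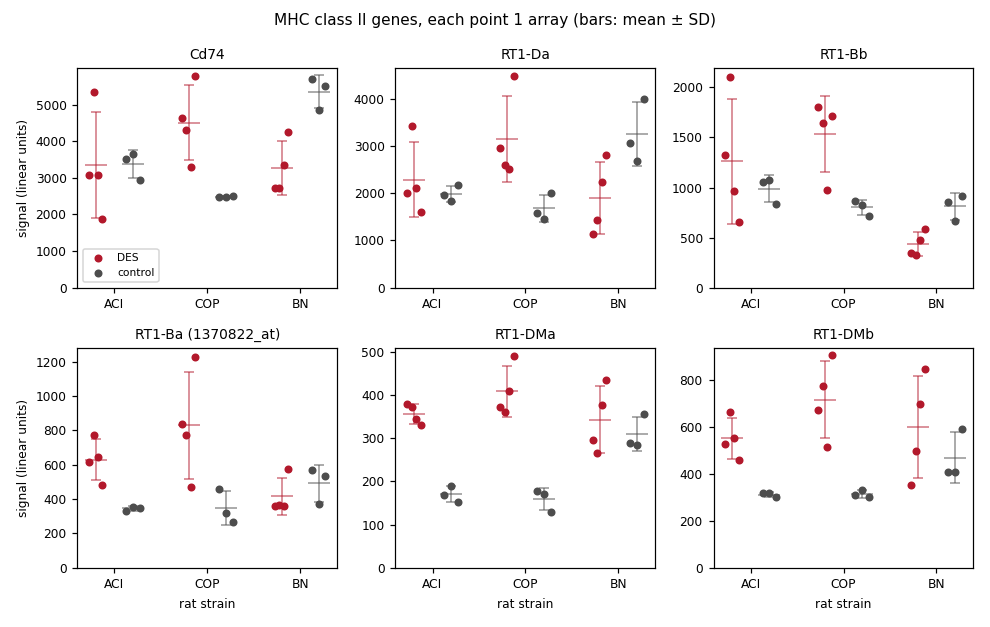
Signal (y axis, linear units) of 6 class II genes on each array, with DES left of control in each strain and bars for the mean ± SD of 4 DES and 3 control arrays. DES arrays of Cd74 lie above the controls in COP and below them in BN, and RT1-DMa is higher with DES in ACI and COP while its BN groups overlap.

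Whether the response to DES itself differed between strains was tested with the interaction terms. Between COP and BN, 7 members responded more positively in COP and 1 more negatively (2.8% and 2.42% of all probe sets tested), and 5 of the 7 were class II. They were RT1-Bb (1.79 ± 0.39, adjusted p = 0.0083), RT1-Da (1.70 ± 0.37, adjusted p = 0.00816), Cd74 (1.56 ± 0.33, adjusted p = 0.00609), RT1-Ba (1.42 ± 0.35, adjusted p = 0.0184) and RT1-DMa (1.15 ± 0.24, adjusted p = 0.00522). Tapbp and 1 RT1-CE5 probe set completed the 7. The RT1-Ba call was lost without BN control array 1 or 3, or COP control array 2 or 3 (adjusted p = 0.0509 to 0.0621). The RT1-CE5 call was lost without COP DES array 4, COP control array 2 or 3, or any 1 BN control array (adjusted p = 0.0508 to 0.0822). Between ACI and BN, 7 members were called in the positive and 1 in the negative direction (6.23% and 7.91% of all), among them RT1-DMa (0.88 ± 0.24, adjusted p = 0.0151) and RT1-Ba (1.06 ± 0.35, adjusted p = 0.0465). The second of these was lost in 17 of 34 alternative settings. In both contrasts the RT1-Ba response was that of 1370822_at, and its other probe sets were not called. For Cd74 the ACI minus BN response was 0.63 ± 0.33 (95% interval -0.05 to 1.31, adjusted p = 0.229). Without BN DES arrays 3 and 4, RT1-Da (1.46, adjusted p = 0.0051), RT1-Bb (1.45, adjusted p = 0.021), RT1-Db1 (1.44, adjusted p = 0.0205) and RT1-DMb (0.91, adjusted p = 0.0311) were also called between ACI and BN. In the same setting RT1-Db1 (2.21, adjusted p = 0.00195) and RT1-DMb (1.25, adjusted p = 0.00847) were also called between COP and BN, where they had differed by 1.44 (adjusted p = 0.111) and 0.83 (adjusted p = 0.143) with all arrays. Between ACI and COP no member was called (0.169% higher and 0.357% lower of all, limma), and 2 had an unadjusted p under 0.05.

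Of the genes that supply peptides to class I, Psmb9, Psmb8 and Tap2 fell with DES in all 3 strains, Erap1 fell in ACI and COP, Tap1 fell in BN, and Tapbp rose in ACI and COP. Psmb9, an interferon-inducible catalytic subunit of the immunoproteasome, had 405.8, 379.6, 340.0 and 419.6 in ACI DES rats against 1932.8, 1780.1 and 2060.2 in ACI controls. In COP Psmb9 had 383.8, 403.5, 527.0 and 529.7 with DES against 1995.2, 2181.7 and 2285.2 in controls, and in BN 272.4, 454.0, 792.9 and 834.5 with DES against 1817.1, 1780.4 and 1732.8 in controls. DES and control arrays were apart in all 3 strains. The log2 differences of Psmb9 were -2.27 ± 0.24 in ACI (adjusted p = 5.9e-08), -2.20 ± 0.24 in COP (adjusted p = 1.42e-07) and -1.70 ± 0.24 in BN (adjusted p = 9.7e-06), and each kept its call in all alternative settings run. The BN fall was larger on arrays 1 and 2 (-2.30) than on arrays 3 and 4 (-1.08).

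The other immunoproteasome subunits did not share that size. Psmb8, another immunoproteasome subunit, had 281.4 to 414.8 in ACI DES rats against 500.2 to 586.6 in ACI controls, 331.6 to 429.2 in COP DES rats against 554.3 to 601.2 in COP controls, and 314.4 to 512.4 in BN DES rats against 758.2 to 903.7 in BN controls, with no overlap. Its log2 differences were -0.58 ± 0.16, -0.56 ± 0.16 and -0.99 ± 0.16 in ACI, COP and BN. With quantile normalization the adjusted p of Psmb8 was 0.0736 in ACI and 0.0857 in COP, and with median centring 0.0696 in ACI. The Psmb8 response was called without BN DES arrays 3 and 4 between ACI and BN (0.68, adjusted p = 0.0302) and between COP and BN (0.71, adjusted p = 0.048), where with all arrays the adjusted p was 0.264 and 0.32. Psmb10, the remaining subunit, was not called, with differences of -0.10 ± 0.30 in ACI (adjusted p = 0.818), 0.05 ± 0.30 in COP (adjusted p = 0.913) and 0.29 ± 0.30 in BN (adjusted p = 0.505). Psmb10 went opposite ways in the array pairs of BN, at -0.42 (adjusted p = 0.0179) on arrays 1 and 2 and 0.97 (adjusted p = 0.00429) on arrays 3 and 4.

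Of the TAP transporter subunits, Tap1 fell in BN, where it had 222.1, 241.5, 149.2 and 133.5 with DES against 463.3, 457.9 and 413.1 in controls. The BN groups were apart, with a difference of -1.22 ± 0.21 (adjusted p = 8.77e-05). Tap1 differed by -0.28 ± 0.21 in ACI (adjusted p = 0.286) and -0.39 ± 0.21 in COP (adjusted p = 0.134). The ACI minus BN response of Tap1 was 0.95 ± 0.29 (adjusted p = 0.033), a call lost in 11 of 34 settings and without BN DES arrays 3 and 4 (0.62, adjusted p = 0.161). Tap2 fell by 1.27 ± 0.40 on the log2 scale in ACI, 1.02 ± 0.40 in COP and 1.17 ± 0.40 in BN (adjusted p = 0.012, 0.0448 and 0.0282). The COP call of Tap2 was lost in 18 of 33 settings. Its BN call was lost in 7 of 33, among them without BN DES arrays 3 and 4 (-1.29, adjusted p = 0.0592), without BN DES array 2 (adjusted p = 0.0536), and without any 1 of the 3 BN control arrays (adjusted p = 0.0576 to 0.0791). The ACI call was lost without ACI control array 1 (-1.15, adjusted p = 0.0517), and the ACI value includes 1 DES array at 13.5 beside 3 at 88.0 to 115.8.

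Tapbp, or tapasin, which holds class I at the transporter, went the other way. It averaged 1833 ± 83.8 in ACI DES rats and 1004 ± 171 in ACI controls, and 1912 ± 216 in COP DES rats and 1202 ± 11.5 in COP controls, rises of 0.87 ± 0.15 (adjusted p = 3.77e-05) and 0.66 ± 0.15 (adjusted p = 0.00098). In BN it averaged 997.2 ± 227 with DES and 1093 ± 110 in controls (-0.15 ± 0.15, adjusted p = 0.453). The response of Tapbp differed between ACI and BN by 1.03 ± 0.21 (adjusted p = 0.00183) and between COP and BN by 0.81 ± 0.21 (adjusted p = 0.024). The COP minus BN call was lost without BN DES arrays 3 and 4 (0.55, adjusted p = 0.0767). It was also lost without BN control array 1 or 2, COP DES array 2, or any 1 COP control array (adjusted p = 0.0506 to 0.0655). Erap1, which trims peptides in the endoplasmic reticulum, fell by 1.15 ± 0.23 in ACI (adjusted p = 0.000207) and 0.66 ± 0.23 in COP (adjusted p = 0.0216) and differed by -0.35 ± 0.23 in BN (adjusted p = 0.246). The COP call of Erap1 was lost without COP DES array 2, or COP control array 1 or 3 (adjusted p = 0.051 to 0.0638). Erap1 in BN was called with quantile normalization (-0.66, adjusted p = 0.012) and without BN DES arrays 3 and 4 (-0.71, adjusted p = 0.0278).

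**Figure D3:**
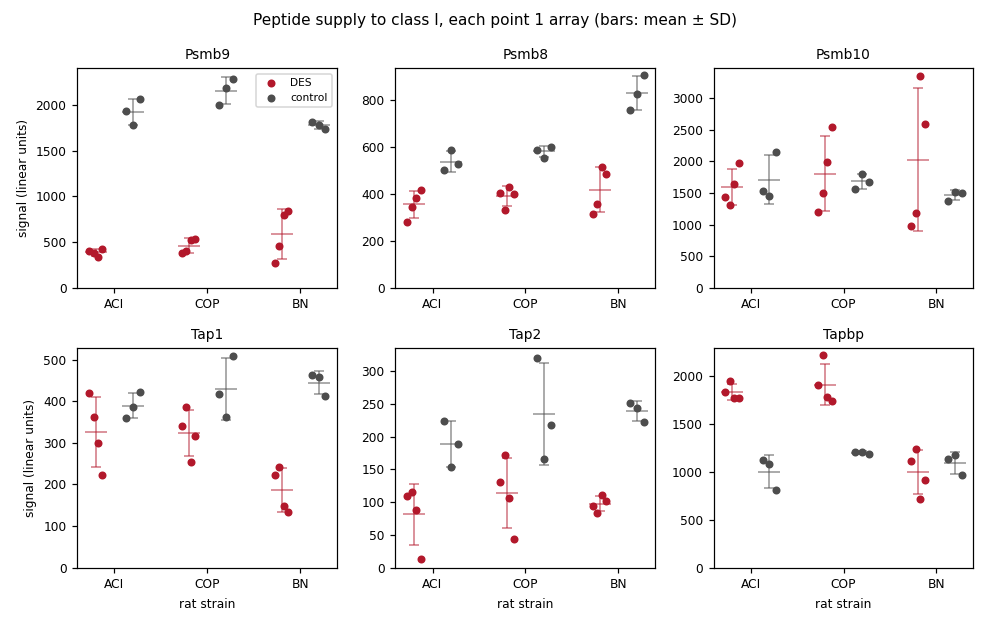
Signal (y axis, linear units) of 6 genes that supply peptides to class I on each array, with DES left of control in each strain and bars for the mean ± SD. Psmb9 averages 386 in ACI DES rats against 1924 in ACI controls, and Tapbp is higher with DES in ACI and COP but overlaps in BN.

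Class I heavy chain genes did not move as a group. RT1-M3-1, whose mouse counterpart is a nonclassical class I molecule that presents N-formylated peptides, fell most of all members in ACI. In COP it was close to Psmb9 (-2.22 against -2.20), and on arrays 3 and 4 alone Psmb9 fell further (-1.82 against -2.08). RT1-M3-1 had 177.6, 245.6, 352.5 and 330.9 in ACI DES rats against 1847.0, 1893.0 and 2025.9 in ACI controls. In COP RT1-M3-1 had 317.4, 367.7, 556.4 and 485.6 with DES against 2015.0, 2165.3 and 1881.9 in controls, and in BN 459.8, 538.3, 1028.9 and 718.5 with DES against 983.6, 1093.5 and 1161.2 in controls. The ACI and COP groups were far apart, and the BN groups overlapped by 1 DES array. RT1-M3-1 fell by 2.77 ± 0.23 on the log2 scale in ACI (adjusted p = 1.55e-09), 2.22 ± 0.23 in COP (adjusted p = 7.65e-08) and 0.70 ± 0.23 in BN (adjusted p = 0.0221). In BN the fall was 1.09 without arrays 3 and 4 (adjusted p = 0.000937), and its adjusted p was 0.0641 with quantile normalization and 0.0509 with median centring. The BN call was also lost without BN DES array 1 or 2, or BN control array 2 or 3 (adjusted p = 0.0579 to 0.0763). The response of RT1-M3-1 differed between ACI and BN (-2.07 ± 0.33, adjusted p = 0.000186) and between COP and BN (-1.51 ± 0.33, adjusted p = 0.00751). The control level itself was higher in ACI than in BN, since RT1-M3-1 averaged 1922 ± 92.9 in ACI controls and 1079 ± 89.6 in BN controls (0.83 ± 0.25, adjusted p = 0.046, a call lost in 17 of 34 alternative settings).

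RT1-A, the classical class I heavy chain gene, rose with DES in ACI and COP on its probe set 1370429_at. Its signals were 946.3, 862.7, 729.0 and 707.2 in ACI DES rats against 215.8, 221.8 and 109.2 in ACI controls, and 762.7, 856.0, 589.4 and 514.7 in COP DES rats against 357.7, 253.0 and 151.9 in COP controls. Neither pair of groups overlapped. RT1-A rose by 2.11 ± 0.30 in ACI (adjusted p = 3.54e-06) and 1.41 ± 0.30 in COP (adjusted p = 0.000501). In BN RT1-A was at 39.7 to 117.1 with DES and 33.6 to 49.9 in controls, mostly below the 40th percentile of the arrays (67 to 90.6), with a difference of 0.49 ± 0.30 (adjusted p = 0.222). The BN control arrays were all below that percentile, so the size of the BN difference, and of any contrast of the other strains with BN on RT1-A, depends on the constant of 16 added before log2.

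Several RT1-CE5 probe sets, from the class I region that holds mostly nonclassical genes, rose in ACI and COP. RT1-CE5 on 1370972_x_at had 718.5, 654.2, 623.0 and 673.3 in ACI DES rats against 347.1, 397.9 and 388.0 in ACI controls (0.80 ± 0.14, adjusted p = 6.03e-05), and averaged 601.6 ± 126 in COP DES rats and 395.1 ± 52.7 in COP controls (0.57 ± 0.14, adjusted p = 0.00212). Its BN means were 451.0 ± 27.6 with DES and 448.4 ± 23.8 in controls, a difference of 0.01 ± 0.14 (95% interval -0.28 to 0.30). A second RT1-CE5 probe set, 1371209_at, responded differently between ACI and BN (1.14 ± 0.31, adjusted p = 0.015) and between COP and BN (1.15 ± 0.31, adjusted p = 0.0314). Its COP minus BN call was lost without any 1 of several single arrays, as given above. In BN itself this second probe set differed by -0.55 (adjusted p = 0.0573), and by -1.01 without BN DES arrays 3 and 4 (adjusted p = 0.000238). RT1-S3, a nonclassical class I gene, fell in all 3 strains on 1388164_at, by 0.76, 0.70 and 0.79 on the log2 scale in ACI, COP and BN (SE 0.19 each). The other 3 RT1-S3 probe sets moved less. The brightest, 1388212_a_at, averaged 972.8 in ACI DES rats and 1052 in ACI controls, 1174 in COP DES rats and 1283 in COP controls, and 1280 in BN DES rats and 1550 in BN controls, and was called in BN only (-0.27, adjusted p = 0.0414). RT1-S3 was called on 1371123_x_at in ACI only (-0.34, adjusted p = 0.0175) and on 1388213_a_at in no strain, so the size of its fall depended on the probe set. The probe set annotated to RT1-A, RT1-CE16 and RT1-A1 was at 47.8, 122.4, 111.4 and 160.1 in BN DES rats against 13.0, 79.9 and 18.2 in BN controls, which overlapped, and rose by 1.38 ± 0.38 (adjusted p = 0.00674). BN control arrays 1 and 3 and BN DES array 1 lay below the 40th percentile there. The size of this rise therefore depends on the constant of 16 added before log2. With B2m and Cd86 this probe set made up the 3 members that rose in BN. Its call was lost without BN DES arrays 3 and 4 (1.04, adjusted p = 0.0861) and without BN control array 1 (1.05, adjusted p = 0.0618). The probe set shared by RT1-A and several RT1-CE genes fell in COP, by 0.88 ± 0.26 on the log2 scale (adjusted p = 0.00904, and 0.0541 without COP control array 1). In BN RT1-A/RT1-CE11/RT1-CE13/RT1-CE7/RT1-CE5 was at 75.9, 63.5, 71.7 and 21.9 with DES, below the 40th percentile on every array, against 127.3, 133.2 and 95.4 in controls. It was called lower there (adjusted p = 0.00872), a call lost without BN DES arrays 3 and 4 (-0.64, adjusted p = 0.0531). Probe sets of near-identical RT1 genes can share transcripts, so the gene behind each of these values is uncertain.

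B2m, the light chain common to class I molecules, was the brightest member. It had 17589.5, 18100.9, 18012.8 and 17951.2 in ACI DES rats against 9742.6, 10656.4 and 14817.1 in ACI controls, and it rose by 0.63, 0.64 and 0.69 on the log2 scale in ACI, COP and BN (SE 0.17 each). The DES groups lay above their controls in all 3 strains. With quantile normalization the differences of B2m were 0.17 in ACI (adjusted p = 0.0672), 0.09 in COP (adjusted p = 0.348) and 0.01 in BN (adjusted p = 0.964), and its second probe set 1371440_at was called in no strain. Without BN DES arrays 3 and 4, B2m differed by 0.31 in BN (adjusted p = 0.0771). The cre spike-in control, which is added in equal amount to each hybridization and is also bright, was higher with DES in COP and BN and overlapped in ACI, at 32756.1 to 40612.8 in ACI DES against 19000.8 to 34550.7 in ACI control, 33158.3 to 41174.9 in COP DES against 24890.6 to 25571.2 in COP control, and 28940.2 to 60932.7 in BN DES against 22108.7 to 25842.7 in BN control. Its part in the B2m result was not tested.

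The next question was how the strains differed at a given treatment. Between ACI and BN controls, 5 members were higher and 8 lower in ACI (3.43% and 3.34% of all probe sets tested). Between COP and BN controls, 5 were higher and 5 lower in COP (2.65% and 3.04% of all). With DES, 8 were higher and 12 lower in ACI than in BN (13.7% and 17.6% of all), and 11 were higher and 7 lower in COP than in BN (10.4% and 11.8% of all). Between ACI and COP, limma called no member in controls (0.645% and 0.558% of all) or in DES rats (1.48% and 3.2% of all), where 3 and 6 members had an unadjusted p under 0.05. With BN DES arrays 3 and 4 left out, which changes only the shared estimate of spread here, 2 members were called lower in ACI than in COP DES rats (6.38% of all called), one of them RT1-M3-1 (-0.63, adjusted p = 0.0326). For a strain difference on an RT1 probe set, a difference in transcript level and a difference in how the strain's allele binds the probes cannot be told apart.

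The widest strain differences were on probe sets that were near the floor in some strains and bright in others. The probe set 1370428_x_at, annotated to RT1-A3 and RT1-A2, was at 35.6 to 73.7 in ACI DES rats, 48.0 to 65.6 in COP DES rats and 2704.9 to 4610.5 in BN DES rats. In controls it was at 33.3 to 56.9 in ACI, 29.8 to 54.8 in COP and 2319.8 to 2654.6 in BN. All but 1 of the ACI and COP values lay below the 40th percentile of their array. A difference against values at the floor depends on the constant of 16 added before log2, so no fold is given for RT1-A3/RT1-A2. The RT1-A probe set 1370429_at, with the signals given above, had the opposite order and was called higher in ACI than in BN both in controls and in DES rats. The BN controls were at the floor there too.

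RT1-Ba showed both orders within the same gene. Its probe set 1381593_x_at was at 26.3 to 93.2 in ACI DES rats, 16.2 to 143.3 in COP DES rats and 2243.2 to 5271.0 in BN DES rats, and at 26.6 to 36.6, 24.8 to 104.3 and 4342.5 to 7330.5 in the ACI, COP and BN controls. On 3 of the 14 ACI and COP arrays it was above the 40th percentile. The probe set 1392334_at was also brightest in BN but was above the percentile on 8 of the 14 ACI and COP arrays. It was at 86.2 to 259.5 in ACI DES rats, 36.7 to 212.0 in COP DES rats and 2300.8 to 5405.5 in BN DES rats, and at 39.2 to 132.8, 23.5 to 114.5 and 4559.6 to 7241.5 in the ACI, COP and BN controls. By contrast RT1-Ba on 1377334_at averaged 261.2 ± 134 in ACI controls and 152.6 ± 90.0 in COP controls, and was at 15.2 to 44.1 in BN controls, below the percentile on every array. It was called higher in ACI than in BN controls (adjusted p = 0.00275), and no fold is given. On 1370822_at RT1-Ba was not called between controls (-0.47, adjusted p = 0.383 for ACI against BN, and -0.50, adjusted p = 0.376 for COP against BN). The probe sets 1381593_x_at and 1392334_at differed with DES in BN by -0.70 (adjusted p = 0.248) and -0.81 (adjusted p = 0.214).

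Strain differences in controls were also seen for class II genes without such extremes. Cd74 averaged 2481 ± 11.8 in COP controls and 5351 ± 447 in BN controls (-1.10 ± 0.25, adjusted p = 0.00801). RT1-DMa averaged 170.0 ± 18.8 in ACI controls and 159.4 ± 26.3 in COP controls, against 283.4 to 355.6 in BN controls (-0.81 and -0.90, adjusted p = 0.00653 and 0.00298). Among DES rats RT1-DMa averaged 357.1 ± 23.1 in ACI, 408.7 ± 58.4 in COP and 343.2 ± 77.2 in BN. These levels were not called different between strains. RT1-DMa was higher in COP than in BN DES rats once BN arrays 3 and 4 were left out (0.51, adjusted p = 0.0373), the opposite direction to controls. Leaving out these 2 arrays changed other calls among DES rats. RT1-DMb (0.72, adjusted p = 0.0144), RT1-Db1 (1.64, adjusted p = 0.000471) and Psmb10 (0.68, adjusted p = 0.032) became called as higher in COP than in BN. RT1-Ba on 1370822_at (0.75, adjusted p = 0.0432), RT1-Da (0.77, adjusted p = 0.0217) and RT1-Db1 (1.14, adjusted p = 0.00633) became called as higher in ACI than in BN. Tap1 was no longer called higher than in BN in ACI (0.43, adjusted p = 0.125) or COP (0.44, adjusted p = 0.135). Between COP and BN the calls of Erap1, RT1-CE5 (1370972_x_at), RT1-M3-1 and RT1-S3 (1388164_at) were also lost, with adjusted p of 0.306, 0.0865, 0.488 and 0.0881.

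**Figure D4:**
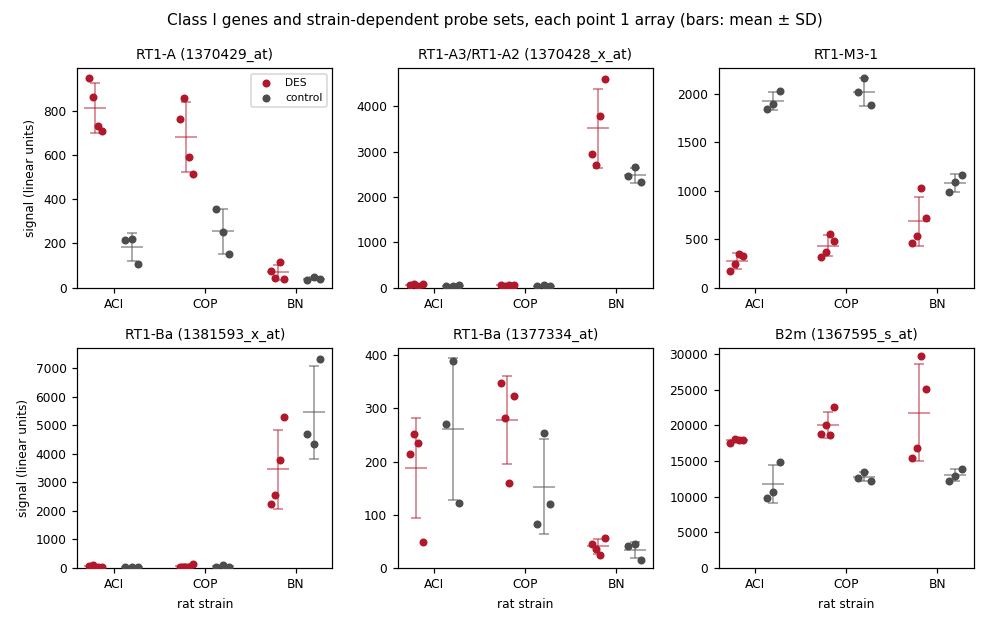
Signal (y axis, linear units) of class I genes and of RT1-Ba probe sets on each array, with DES left of control in each strain and bars for the mean ± SD. RT1-A3/RT1-A2 and RT1-Ba 1381593_x_at are at 2243.2 or more on every BN array and at 143.3 or less on every ACI and COP array, RT1-A is higher in ACI and COP than in BN at each treatment, and RT1-M3-1 falls with DES most in ACI and COP.

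Among the other members, Cd86, a costimulatory molecule of antigen-presenting cells, averaged 100.8 ± 24.5 in ACI DES rats and 39.9 ± 8.64 in ACI controls. It rose by 1.05 ± 0.24 in ACI, 0.92 ± 0.24 in COP and 0.79 ± 0.24 in BN (adjusted p = 0.000805, 0.00305 and 0.0127). The BN call of Cd86 was lost without BN DES arrays 3 and 4 (0.59, adjusted p = 0.137) and without BN control array 1 (0.65, adjusted p = 0.0753). All ACI and BN control arrays of Cd86 lay below the 40th percentile, so it passed the filter mainly through DES arrays. The sizes of these rises therefore depend on the constant of 16 added before log2. The second Cd86 probe set, 1387627_at, was above the percentile on 5 of 21 arrays, all of them DES arrays, and was called higher in COP only. It passed the filter only through DES arrays. COP DES arrays 1 and 3 (48.5 and 49.7) and all COP controls (15.9 to 43.2) lay below the percentile there. Cd1d1, which presents lipids to natural killer T cells, fell by 1.75 ± 0.30 in ACI, 0.99 ± 0.30 in COP and 0.89 ± 0.30 in BN (adjusted p = 5.14e-05, 0.0117 and 0.0277). Cd1d1 lay below the 40th percentile on ACI DES arrays 1, 2 and 3 and on COP DES arrays 1, 2 and 4. The sizes of its fall in ACI and COP therefore depend on the constant of 16 added before log2. The BN call of Cd1d1 was lost in 8 of 33 settings, among them without BN DES arrays 3 and 4 (-0.80, adjusted p = 0.117). Nlrc5, the class I transactivator, was dim, at 14.2 to 54.1 in ACI DES rats against 72.7 to 112.5 in ACI controls, and fell in ACI (-1.02 ± 0.34, adjusted p = 0.0167) and BN (-0.97 ± 0.34, adjusted p = 0.0317). Nlrc5 was above the 40th percentile on 7 of 21 arrays, all of them controls, so it passed the filter only through control arrays. The sizes of its falls therefore depend on the constant of 16 added before log2. Its ACI call was lost without ACI DES array 4 (-0.76, adjusted p = 0.0675) or ACI control array 1 (-0.86, adjusted p = 0.0826). The BN call of Nlrc5 was lost without BN DES arrays 3 and 4 (-0.81, adjusted p = 0.137), and without BN DES array 3 or BN control array 1 or 3. Ciita, the class II transactivator, was near the floor and not called (-0.29, 0.54 and 0.01 in ACI, COP and BN on its brighter probe set). Cd80 and Calhm6 did not pass the filter.

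The other genes of these pathways, taken from lists, were read the same way. Of 10 further class II pathway genes tested, mainly lysosomal proteases that prepare antigen, 8 rose in ACI, 8 rose in COP and 1 rose in BN, and 0 fell in any strain. Their median log2 difference was 0.81, 0.77 and 0.19 in ACI, COP and BN, where the median of all probe sets tested was -0.13, -0.09 and -0.06. Of all probe sets tested, 19.8% rose and 29.3% fell in ACI, against 17.9% and 25.2% for COP and 14% and 19.4% for BN. Ctss, which cuts the invariant chain, rose by 0.74 in ACI and 1.51 in COP (adjusted p = 0.000568 and 1.01e-07) and differed by 0.29 in BN. Ctsd, a lysosomal protease, rose in all 3 strains (0.82, 0.99 and 0.42). Of 11 further class I pathway genes, 7 rose and 2 fell in ACI, against 5 and 2 for COP and 5 and 2 for BN, with medians of 0.47, 0.53 and 0.39. The genes that fell were Psme1 (-1.04, -0.98 and -0.43) and Psme2 (-1.69, -1.35 and -0.88 in ACI, COP and BN), the proteasome activator subunits induced by interferon. The endoplasmic reticulum chaperone Pdia3 rose in all 3 (0.85, 0.67 and 0.62).

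Among regulators of MHC transcription more fell than rose in each strain. Of 14 tested, 2 rose and 6 fell in ACI, against 1 and 7 for COP and 0 and 8 for BN, where 29.3%, 25.2% and 19.4% of all probe sets tested fell in ACI, COP and BN. The medians were -0.26, -0.27 and -0.31. Irf1, an interferon-induced activator of class I and immunoproteasome genes, fell by 1.22 in ACI, 1.59 in COP and 1.12 in BN (adjusted p = 2.07e-08, 5.49e-10 and 2.16e-07). Rfxap and Nfyb, parts of the complexes that bind class II promoters, fell in all 3 strains (-0.67, -0.65 and -0.32 for Rfxap, and -0.81, -0.77 and -0.44 for Nfyb in ACI, COP and BN). Of 17 interferon-induced genes, 8 rose and 4 fell in ACI, against 7 and 4 for COP and 1 and 7 for BN, with medians of 0.79, 0.35 and -0.65. The shares of all probe sets tested that rose were 19.8%, 17.9% and 14% in ACI, COP and BN. Mx1, chosen after its values were seen, rose by 2.07 in ACI and 1.73 in COP and fell by 0.97 in BN, and its response differed by 3.04 between ACI and BN and by 2.70 between COP and BN (adjusted p = 7.23e-05 and 0.000631). Igtp fell in all 3 strains (-1.90, -1.91 and -1.54).

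Macrophage markers were called higher with DES more often in ACI and COP than in BN. Of all probe sets tested, 19.8% rose in ACI, 17.9% in COP and 14% in BN. Of 17 macrophage markers, 15 rose and 0 fell in ACI, 15 rose and 1 fell in COP, and 7 rose and 0 fell in BN. Their summed signal was 20339.7 to 23168.2 in ACI DES rats against 5672.1 to 8390.1 in ACI controls, 18202.6 to 24977.2 in COP DES rats against 7916.5 to 8661.6 in COP controls, and 10683.3 to 20048.7 in BN DES rats against 7765.6 to 9899.7 in BN controls. The complement gene C1qb rose by 2.43, 2.96 and 1.06 in ACI, COP and BN. Macrophage markers below the 40th percentile on all arrays of a group numbered 0 in ACI DES, 1 in COP DES and 1 in BN DES, against 2, 3 and 2 in the ACI, COP and BN controls. In whole glands, more cells of a type and more RNA per cell cannot be told apart. The part of the macrophage markers in the class II result was not tested.

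Lymphoid and dendritic markers were sparse. Of the 9 T and NK cell markers on the array only 2 were tested and none was called (limma), and of 5 dendritic cell markers 3 were tested, with 1 higher in each strain. Of 5 B and plasma cell markers 2 were tested, and Mzb1, an endoplasmic reticulum protein of B and plasma cells, was called higher in all 3 strains. All 5 were below the 40th percentile on every control array, so Mzb1 passed the filter only through DES arrays, where it was high. No fold or p-value is therefore given for Mzb1. Folliculostellate markers, of the supporting cells of the gland, fell in 5 of 6 in ACI, 4 in COP and 4 in BN. Of 5 endothelial markers tested, 1 rose and 3 fell in ACI, against 1 and 1 for COP and 2 and 0 for BN. Of 7 pituitary hormone genes, 0 rose and 4 fell in ACI, against 2 and 4 for COP and 3 and 2 for BN. Of 4 red blood cell markers, 1 rose and 1 fell in ACI, against 1 and 1 for COP and 1 and 0 for BN. Of all probe sets tested, 19.8% rose and 29.3% fell in ACI, against 17.9% and 25.2% for COP and 14% and 19.4% for BN. These lists are short, so their counts are given as a description. The part of these markers in the results was not tested.

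Over the 21 arrays, the members with log2 signals closest to those of Cd74 were RT1-Da (Pearson r = 0.8722) and RT1-Db1 (r = 0.7402). Outside the members the closest genes were Ifgga2l1 (r = 0.6883), Evi2a (r = 0.6715), Isg15 (r = 0.6694), Meg3 (r = 0.6609) and Armcx6 (r = 0.6603). These correlations are a description over arrays that share strains and treatments.

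Of the remaining members, 3 with a call with DES are named here after their values were seen. RT1-CE16, a class I gene of the RT1-CE region, had 2387.4 to 2761.4 in ACI DES rats against 1566.8 to 1905.5 in ACI controls, and 2273.4 to 2391.7 in COP DES rats against 1673.9 to 1826.1 in COP controls. Neither pair of groups overlapped, and RT1-CE16 rose by 0.58 in ACI (adjusted p = 0.00229) and 0.43 in COP (adjusted p = 0.0213) and differed by 0.36 in BN (adjusted p = 0.0615). RT1-T24-4 had 135.4 to 212.8 in ACI DES rats against 235.3 to 293.0 in ACI controls, and fell in ACI (-0.62, adjusted p = 0.022). RT1-CE12 fell in COP (-0.64, adjusted p = 0.0153), with groups that overlapped. Of the 11 that did not pass the filter, the probe sets were those of Calhm6, Cd80, RT1-N2, RT1-N3, both RT1-A3 probe sets, and second probe sets of Erap1, RT1-Bb, RT1-CE5, RT1-T24-3/RT1-T24-4 and Tap1. RT1-M6-1/RT1-M4, at 1.7 to 111.2 over the 21 arrays, passed the filter and was not called in any of the 3 strains.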

How the data were processed

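Total RNA of whole anterior pituitaries was hybridized to 1-color Affymetrix rat arrays. The authors deposited 1 table of signal intensity per probe set, on a linear scale, and every array had been scaled to a trimmed mean near 500.1 (2% trimmed at each end). The summarization software is not given in the sources used here. Gene names come from the platform annotation, promoter sequences from RefSeq (GRCr8).

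From the deposited intensity, 57 array control probe sets were left out, 16 was added and log2 taken, without further normalization. Probe sets whose signal passed the 40th percentile on 3 or more of the 21 arrays were tested with limma 3.58.1 in R 4.3.3 (6 group means, eBayes with a variance trend, two-sided). P-values were adjusted by Benjamini-Hochberg over all 21858 probe sets tested, and those under 0.05 were called. For single probe sets an exact permutation test over arrays was added, which cannot go below 0.0286 for 4 against 3 arrays (35 splits) or below 0.1 for 3 against 3. The fit was tested on simulated data. Array number limits the precision. Groups were taken from the sample labels, and 12 comparisons were made. The text names the main members whether called or not (each by its brightest probe set, others where they differ), of the remaining RT1 probe sets the 3 called with the largest difference in each comparison, up to 4 genes of a list with the smallest adjusted p with DES, and the 5 genes most like Cd74. The members and the gene lists (further class I and class II pathway genes, regulators of MHC transcription, interferon-induced genes, and macrophage, dendritic, B and plasma, T and NK, endothelial, folliculostellate, pituitary hormone and red blood cell markers) were chosen with earlier results of these data known. Alternatives were other filters (none, 60th percentile), added constants (1 and 64), quantile normalization, median centring, no variance trend, only the groups compared, the replicate number as a block, subsets of arrays, and each array left out. Figures were drawn with Python 3.11.15 and matplotlib 3.10.9.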

Additional observations from a re-analysis of the deposited data

Results flagged for a closer look

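Among 93 groups of 4 DES arrays (31 probe sets in 3 strains), 5 had 1 array far from the others, by the gap to the nearest array divided by the group's range (Dixon's test, 95%). Chance flags about 1 in 20 groups. The ratio was 0.836 for the RT1-A/RT1-CE11/RT1-CE13/RT1-CE7/RT1-CE5 probe set in BN, where array 4 had 21.9 against 63.5 to 75.9 on the others. It was 0.943 for RT1-Ba on 1370822_at in BN, where array 4 had 572.8 against 357.2 to 367.0. For RT1-Ba on 1377334_at in ACI it was 0.893, with 47.6 on array 4 against 214.4 to 252.7. For RT1-Bb in COP it was 0.848, with 972.9 on array 3 against 1641.0 to 1801.6, and for Tap2 in ACI it was 0.842, with 13.5 on array 4 against 88.0 to 115.8.

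The response to DES differed between strains by the interaction test of limma for 16 results. Those of RT1-Ba were on 1370822_at. Between ACI and BN the log2 difference was 1.62 for RT1-A, 1.06 for RT1-Ba, 0.79 and 1.14 for 2 RT1-CE5 probe sets, 0.88 for RT1-DMa, -2.07 for RT1-M3-1, 0.95 for Tap1 and 1.03 for Tapbp. Between COP and BN it was 1.56 for Cd74, 1.42 for RT1-Ba, 1.79 for RT1-Bb, 1.15 for RT1-CE5, 1.70 for RT1-Da, 1.15 for RT1-DMa, -1.51 for RT1-M3-1 and 0.81 for Tapbp. RT1-A was below the 40th percentile on all 3 BN control arrays and on 3 of 4 BN DES arrays, so its value depends on the constant of 16 added before log2.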

How the results depend on the processing

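Of the 372 single results, the 7 that changed direction with a call did so in subsets of the arrays. With arrays 1 and 2 only, Psmb10 differed with DES by -0.32 in COP and -0.42 in BN. Cd74 (0.57) and RT1-DMb (0.48) were higher in ACI than in BN DES rats, B2m was higher in COP than in BN DES rats (0.27), and its ACI minus BN response was 0.45. Without BN DES arrays 3 and 4, a choice made after seeing the data, Psmb10 was 0.68 higher in COP than in BN DES rats.

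Counts of members called moved as follows, and the share of all probe sets called moved with most of them. With only the groups compared, 9 were called with DES in BN (17 in the full fit; 23.6% of all against 33.5%) and 5 in the COP minus BN response (8 in the full fit; 3.55% against 5.22%). With arrays 1 and 2 only, 1 was called between ACI and COP controls, 2 between ACI and COP DES rats, and 18 in the ACI minus BN response (6.55%, 4.52% and 17.8% of all, against 1.2%, 4.68% and 14.1% in the full fit). With arrays 3 and 4 only, the DES counts were 10 in ACI, 10 for COP and 8 for BN (32.2%, 26.4% and 25.4% of all, against 49.1%, 43.1% and 33.5% in the full fit). There were 4 between ACI and BN controls, 4 between COP and BN controls, and 1 in the COP minus BN response (2.53%, 1.66% and 2.09% of all, against 6.77%, 5.69% and 5.22%). Without BN DES arrays 3 and 4, 2 were called between ACI and COP DES rats and 13 in the ACI minus BN response (6.38% and 13.3% of all, against 4.68% and 14.1%). The cause was not tested.

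Leaving out 1 array at a time gave 19 to 23 calls with DES in ACI, 17 to 25 in COP and 9 to 18 in BN. It gave 8 to 13 between ACI and BN controls, 7 to 11 between COP and BN controls, 19 to 21 between ACI and BN DES rats, 14 to 19 between COP and BN DES rats, 0 to 1 between ACI and COP DES rats, and 0 between ACI and COP controls. The response counts were 6 to 12 for ACI minus BN, 5 to 9 for COP minus BN and 0 for ACI minus COP.

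The labels tie no array number to a shared animal, litter or day. Deviations of same-numbered arrays correlated at -0.05 to 0.32, and 32 of 48 pairs passed 0.1 where every pair would have to, so the numbers were not taken to pair the arrays. As a hint from the data only, 13 of 21 arrays correlated best, on average, with arrays of their own number in the other groups. With the replicate number as a block, 22 members were called in ACI, 24 in COP, 19 in BN and 2 between ACI and COP DES rats (0 in the full fit), and with the set of numbers as a factor also 2 between ACI and COP DES rats.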
